A study of Mus musculus with 4 samples.

Results

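The regions described here are broad H3K79me2 peaks that lie over the short gap between closely spaced genes. The cells were BMDCs, antigen-presenting dendritic cells grown from bone marrow, here of the mouse strain C57BL/6J. A close gap was the stretch between the facing ends of neighbouring protein-coding genes of the RefSeq table that do not overlap and lie 1000 bp or less apart. Of 21900 such genes, 3643 faced a close gap, and there were 2008 close gaps with a median length of 248.5 bp (quartiles 90.75 and 567 bp). A peak was a member if it overlapped a close gap by 1 bp or more. This gave 659 of the 11926 peaks of the PBS library (5.53%) and 617 of the 9805 peaks of the lysine library (6.29%). The PBS cells were given phosphate-buffered saline and the lysine cells 18 mM of the amino acid lysine for 6 h. No time is given for PBS, no age for the mice, and no other genotype or agent is named. Both groups share the mouse strain and a serum-containing medium. The 4 samples are an H3K79me2 library and its input for each condition, and the peak lists of the 2 H3K79me2 libraries were used. With 1 library a condition there is no spread between replicates, so no test was made and each value describes these libraries. The read depth is unknown. Intervals are 95% intervals and cover counting error over peaks, gaps or genes only, and gene pairs in a cluster are not independent. Coordinates are on GRCm38.

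H3K79me2 is dimethylation of histone H3 within its globular part, made by the methyltransferase Dot1l, which travels with factors of transcription elongation, and the mark lies over the first part of transcribed genes. Facing genes can be arranged in 3 ways. In a divergent pair the starts of both genes flank the gap and the genes are read away from each other, often from one bidirectional promoter rich in CpG. In a convergent pair both ends of transcription flank the gap, and in a tandem pair the end of one gene lies before the start of the next. Bidirectional promoters are known to serve many housekeeping genes, among them genes of DNA repair and of mitochondria.

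Of 12 dendritic cell markers, 8 carried a peak anywhere on the gene in PBS (7856 bp covered in all) and 5 in lysine (4213 bp), Itgax, Cd74, Flt3, Irf8 and Cd86 in both libraries. H2-Aa, Batf3, Irf4 and Ccr7 had none in either library. Of 6 macrophage and monocyte markers 4 had a peak in PBS (2177 bp) and 1 in lysine, Csf1r (1160 bp). The neutrophil list held 1 marked gene of 5, S100a8, with 71 bp in PBS and none in lysine, and the 6 T and B cell markers and 4 silent control genes had none in either. No dendritic cell marker faced a close gap. The part of other cells in the results on gaps was not tested.

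The gaps with the strongest peaks show what these regions look like, and 5 of them are printed here because they had the highest fold enrichment in a list or held a mitochondrial ribosomal gene. They are followed by divergent gaps among the strongest calls in one library alone, Dph3-Oxnad1 in PBS and Lig4-Abhd13 and Erp44-Invs in lysine. Each line is the whole gap between both genes on the plus strand, from the RefSeq promoter windows of GRCm38.p6, and capitals mark matches on either strand to CCGGAAG (the ETS family), TGCGCA (the core of the NRF1 site), AAGATGG (YY1), CCAAT (NF-Y), GGGCGG (Sp1) or TATAAA (the TATA box).
Hnrnpc-Rpgrip1: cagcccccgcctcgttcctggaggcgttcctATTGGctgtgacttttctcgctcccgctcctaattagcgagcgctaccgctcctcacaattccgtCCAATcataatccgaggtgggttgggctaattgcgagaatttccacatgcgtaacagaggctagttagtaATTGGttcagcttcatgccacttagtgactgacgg
Tepsin-Ndufaf8: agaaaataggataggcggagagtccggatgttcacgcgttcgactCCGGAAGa
Xab2-Pet100: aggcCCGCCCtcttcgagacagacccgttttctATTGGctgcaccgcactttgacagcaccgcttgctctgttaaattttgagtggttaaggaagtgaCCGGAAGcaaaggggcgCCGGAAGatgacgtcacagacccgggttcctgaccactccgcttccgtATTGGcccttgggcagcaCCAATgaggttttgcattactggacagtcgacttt
Mmab-Mvk: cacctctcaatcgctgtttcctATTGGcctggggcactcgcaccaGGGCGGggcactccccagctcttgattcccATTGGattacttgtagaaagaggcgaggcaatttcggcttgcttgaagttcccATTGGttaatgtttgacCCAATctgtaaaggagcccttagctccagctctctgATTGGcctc
Mrpl32-Psma2: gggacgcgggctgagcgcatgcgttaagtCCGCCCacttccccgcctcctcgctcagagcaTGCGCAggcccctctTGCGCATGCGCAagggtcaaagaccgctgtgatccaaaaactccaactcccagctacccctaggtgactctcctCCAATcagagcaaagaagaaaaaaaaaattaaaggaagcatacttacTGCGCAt
Dph3-Oxnad1: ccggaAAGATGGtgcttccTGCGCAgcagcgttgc
Lig4-Abhd13: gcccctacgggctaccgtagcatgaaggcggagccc
Erp44-Invs: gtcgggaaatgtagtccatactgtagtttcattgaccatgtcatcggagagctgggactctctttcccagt
The Hnrnpc-Rpgrip1 gap lies at chr14:52104040-52104240, Tepsin-Ndufaf8 at chr11:120098881-120098933, Xab2-Pet100 at chr8:3621335-3621550, Mmab-Mvk at chr5:114444074-114444263 and Mrpl32-Psma2 at chr13:14613038-14613241. The gaps called in one library lie at chr14:32085693-32085727 (Dph3-Oxnad1), chr8:9977681-9977716 (Lig4-Abhd13) and chr4:48279636-48279706 (Erp44-Invs). All 8 are free of protein-coding genes of the RefSeq table, and other genes were not checked. All 8 pairs are divergent, as only gaps covered by the promoter windows of both genes could be printed. The CCAAT box was found 3 times in the Hnrnpc-Rpgrip1 gap, 5 times in Mmab-Mvk and 3 times in Xab2-Pet100, which also held 2 ETS matches. Mrpl32-Psma2 held 4 matches to the NRF1 core, while Lig4-Abhd13 and Erp44-Invs held none of the 6 motifs. No match to the TATA box occurred in any of the 8.

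At Hnrnpc-Rpgrip1, which joins an RNA-binding protein of nuclear pre-mRNA to a ciliary protein of photoreceptors, the PBS peak was 690 bp wide with a fold of 17.5 and the lysine peak 573 bp with a fold of 12.2. Fold is the authors' enrichment of a peak over its local background and is used here only to rank peaks within a list. Tepsin-Ndufaf8, an adaptor of vesicle coats beside an assembly factor of respiratory complex I, had peaks of 592 bp (fold 16.8) and 812 bp (fold 12.04). Tbccd1-Dnajb11, the latter a chaperone of the endoplasmic reticulum, had 689 bp (15.4) and 701 bp (11.5). Xab2-Pet100, a splicing and repair factor beside an assembly factor of cytochrome c oxidase, had 519 bp (12.5) and 543 bp (10.6), and Xrcc3-Zfyve21, with a DNA repair protein, 601 bp (12.3) and 532 bp (11.3). These were the 5 highest folds of the PBS members. In the lysine list the highest were at Eaf2-Golgb1 (fold 12.8, 562 bp), an elongation factor beside a Golgi protein, and Mmab-Mvk (12.4, 586 bp), enzymes of cobalamin and mevalonate metabolism. Hnrnpc-Rpgrip1 and Tepsin-Ndufaf8 followed, then Wbp1-Ino80b (11.98, 626 bp), the latter a subunit of a chromatin remodeller. In each of these 8 pairs a peak lay over the gap in both libraries and covered the gap from end to end.

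Peaks lay over gaps where gene starts faced each other and almost never where gene ends did. Orientation could be assigned for 1429 of the 2008 gaps from the strand in the RefSeq promoter table. Of 562 divergent gaps, 396 (70.5%, interval 66.5 to 74.2) had a peak in PBS and 376 (66.9%, 62.8 to 70.8) in lysine. Of 443 tandem gaps, 111 (25.1%, 21.1 to 29.4) and 95 (21.4%, 17.7 to 25.6) had one. Of 424 convergent gaps, 1 had a peak in each library (0.236%, 0.00597 to 1.31). The 579 gaps without an orientation lay between, with 154 (26.6%) and 147 (25.4%). Intervals of shares are exact Clopper-Pearson intervals. At genes with no close neighbour, the 250 bp just outside the start held a peak at 19.9% of 14517 starts in PBS and 18.7% in lysine. Outside the ends of the same genes the shares were 0.365% and 0.248%. The window is close to the median length of all close gaps. By class the median was 101.5 bp (divergent), 449 bp (tandem) and 378 bp (convergent), so lengths are not matched within a class. The tandem gaps, with 1 start beside the gap, had shares somewhat over those of lone starts, whose value lay within the tandem interval in lysine and below it in PBS. The divergent gaps, with 2 starts, lay above lone starts in both libraries with intervals that do not meet.

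**Figure D1:**
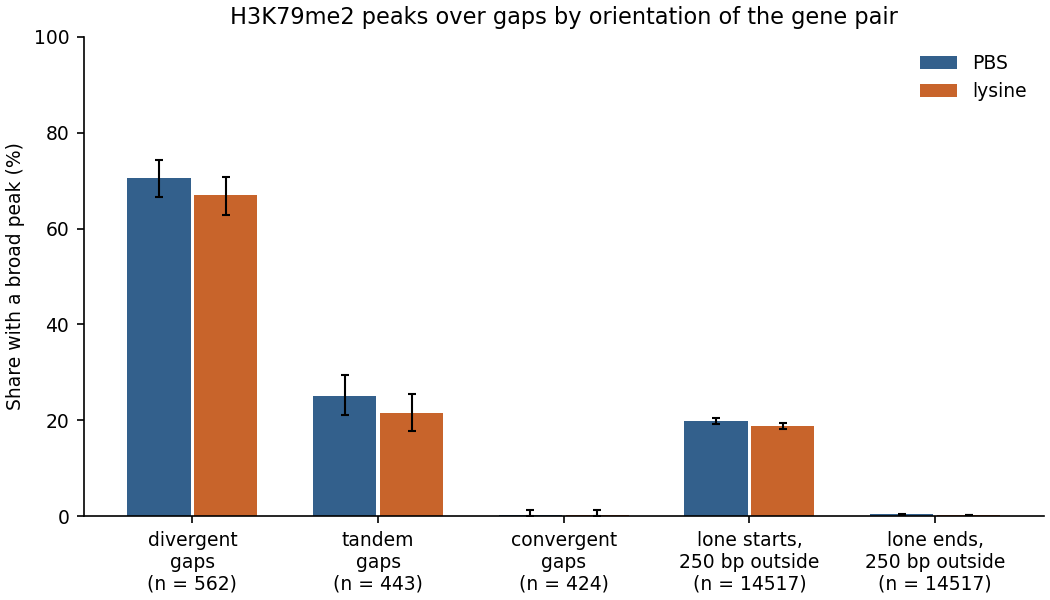
Share of close gaps with a broad peak (vertical axis, percent) in the PBS and lysine libraries for divergent, tandem and convergent gene pairs, and for the 250 bp outside lone starts and lone ends, which belong to genes with no close neighbour. Bars are shares with exact 95% intervals, and the divergent gaps at 70.5% and 66.9% stand above all other classes.

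The single convergent gap with a peak separates the replication-dependent histone genes H2ac21 and H2ac20 (chr3:96220355-96220412, 58 bp). Its peak was 1521 bp wide in PBS (fold 4.098) and 1412 bp in lysine (fold 4.28), and in both libraries it covered the gap and the whole of both short genes, 470 bp of H2ac21 and 468 bp of H2ac20. It is named after its values were seen. Reads of near-identical histone genes can be assigned to the wrong copy. This pair, the other histone pairs named below and the counts of the histone group are therefore uncertain.

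Among divergent gaps the share with a peak also varied with gap length. In PBS it was 64.5% of 279 gaps of 1 to 100 bp, 79.5% of 161 gaps of 101 to 250 bp, 81.5% of 81 gaps of 251 to 500 bp and 53.7% of 41 gaps of 501 to 1000 bp. In lysine the same classes had 59.9%, 78.3%, 79.01% and 46.3%. The middle classes were highest in both libraries, and the intervals of the longest class were wide (37.4 to 69.3 in PBS, 30.7 to 62.6 in lysine). Just inside the limit, 201 gaps of any orientation of 801 to 1000 bp had a peak in 17.9% (PBS) and 13.9% (lysine). Just outside it, 191 gaps of any orientation of 1001 to 1200 bp had one in 18.8% and 14.7%. Few of them were divergent. Inside, 7 (PBS) and 6 (lysine) of 13 divergent gaps had a peak, and outside, 3 and 4 of 9. Of the divergent gaps with a peak in either library, 91.0% of those of 101 to 250 bp had one in both, against 66.8% of those of 1 to 100 bp.

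Peaks at divergent gaps lay across the gap and reached into both genes, and those at tandem gaps leaned to the gene that starts there. In PBS 349 of the 396 divergent gaps with a peak (88.1%) were covered from end to end, and in lysine 331 of 376 (88.0%). Both genes were reached within their first 1 kb in 349 and 329 gaps. The median covered length was 194.5 bp in the gene on the left and 193 bp in the gene on the right in PBS, and 172.5 and 175 bp in lysine. The midpoint of the strongest peak lay a median of 64.5 bp from the centre of the gap in PBS and 61.8 bp in lysine. At tandem gaps the covered length was longer in the gene starting at the gap in 95 of 111 gaps in PBS and in 86 of 95 in lysine, with medians of 245 and 207 bp, while the median in the gene ending there was 0 bp in both. The midpoint lay 272.5 and 264 bp from the centre. These values depend on gap length. The median gap was 101.5 bp (divergent) and 449 bp (tandem), and the median member 529 bp in PBS and 521 bp in lysine. A peak that touches a short gap tends to span it, and both classes were not matched for length.

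**Figure D2:**
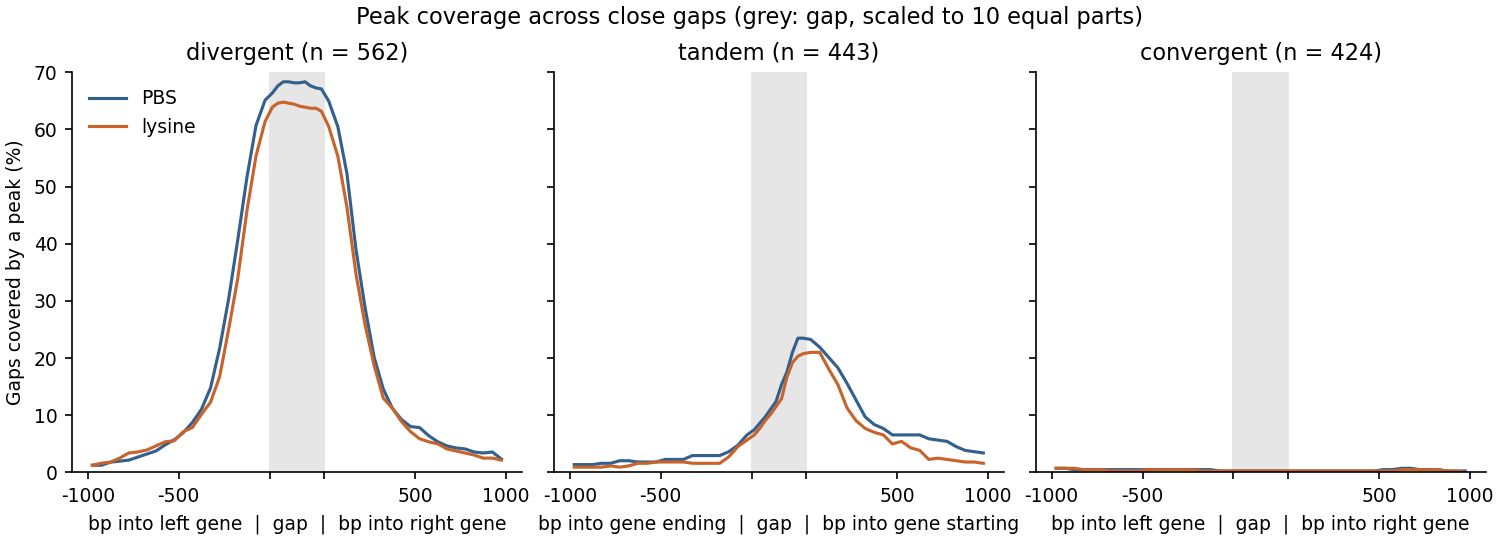
Percent of close gaps covered by a broad peak (vertical axis) from 1000 bp inside one gene, across the gap scaled to 10 equal parts (grey), to 1000 bp inside the other, for divergent, tandem and convergent pairs, with 1 line per library. Coverage of divergent pairs is highest over the gap (up to 68.3% in PBS and 64.8% in lysine) and similar on both sides, and in tandem pairs it is highest near the gene that starts.

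The lean of a divergent peak to one of both genes was often the same in the 2 libraries. Of 337 divergent gaps with a peak in both, 330 had unequal covered lengths on the left and right in each library. The longer side was the same gene in 233 of them (70.6%). Where the sides differed by 200 bp or more in each library, it was the same gene in 57 of 63 (90.5%). Mrps12-Sars2, a mitochondrial ribosomal protein beside the mitochondrial seryl-tRNA synthetase, had more on the Sars2 side in both (370 against 190 bp in PBS, 382 against 264 bp in lysine). Tepsin-Ndufaf8 changed sides, with 374 bp in Tepsin and 165 bp in Ndufaf8 in PBS and 328 and 431 bp in lysine.

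Peaks over close gaps were found in both libraries more often than peaks at the ends of other genes. Sharing means an overlap with the other list of at least 1 bp. Of the PBS members 558 of 659 were shared (84.7%, 81.7 to 87.3), compared with 3151 of 4114 comparison peaks (76.6%, 75.3 to 77.9), which lie within 1 kb of an end of 18257 genes without a close gap. Of the lysine members 555 of 617 were shared (90.0%, 87.3 to 92.2), compared with 3154 of 3798 (83.0%, 81.8 to 84.2). Over all peaks the shares were 61.9% in PBS and 75.3% in lysine. The difference from the comparison peaks was 8.08 percentage points in PBS (Newcombe interval 4.87 to 10.95) and 6.91 in lysine (4.04 to 9.37). Divergent members were shared in 87.1% (PBS) and 91.2% (lysine), tandem members in 78.0% and 85.1%. The tandem intervals were wide (69.0 to 85.4 and 76.3 to 91.6) and overlapped those of the divergent members (83.3 to 90.2 and 87.9 to 93.9).

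The members were also stronger peaks within their lists, and sharing went up with strength in both sets. The median −log10 q, the authors' significance of a peak, was 5.43 in PBS and 5.43 in lysine for members, and 4.64 and 4.40 for comparison peaks. The strongest decile of a list held 20.3% of the PBS members and 22.9% of the lysine members, compared with 15.1% and 14.4% of comparison peaks. Within deciles of −log10 q the members had the higher share in 7 of 10 deciles in PBS and in 9 of 10 in lysine, with intervals that overlap in each decile but the sixth of lysine. In decile 6 the shares were 84.5% against 72.5% in PBS and 96.5% against 83.3% in lysine. In the strongest decile they were 99.3% against 99.4% and 100% against 99.6%. With the comparison weighted to the members' deciles of −log10 q, the difference was 3.62 points in PBS and 3.31 in lysine. Strength moved with the difference in sharing, and its part beyond this weighting was not tested. Against peaks within 1 kb of lone starts alone it was 6.61 and 6.49 points.

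**Figure D3:**
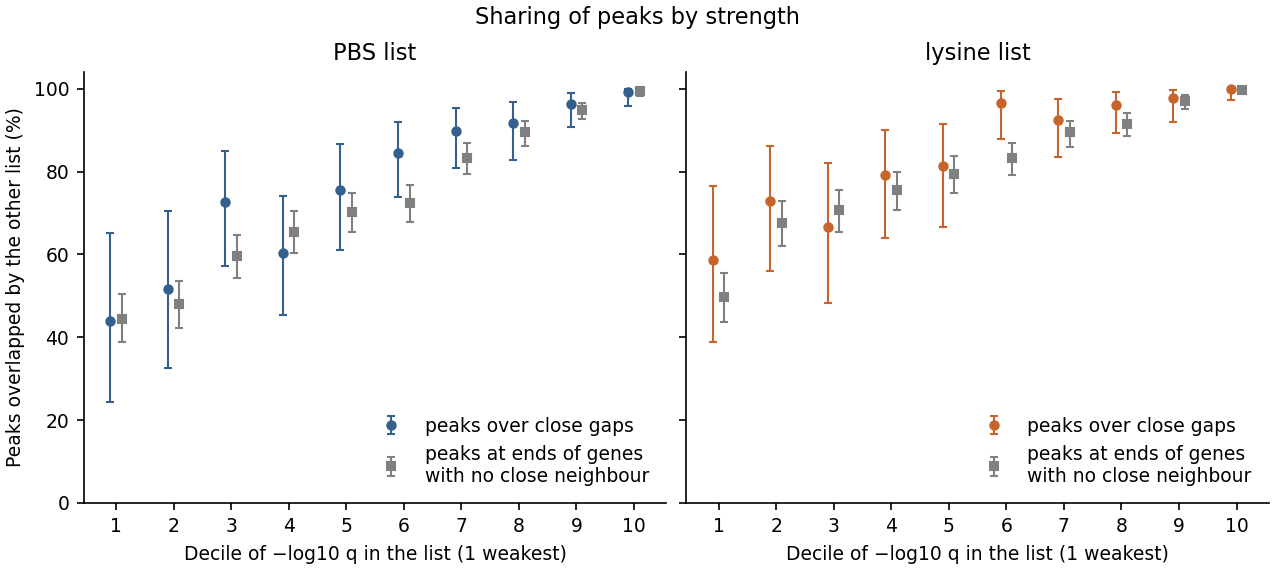
Percent of peaks overlapped by the other list (vertical axis) by decile of −log10 q within the list (horizontal axis, 1 weakest), for peaks over close gaps (colour) and comparison peaks at ends of genes with no close neighbour (grey), with exact 95% intervals. Members have the higher share in 7 of 10 deciles in the PBS list and 9 of 10 in the lysine list, and both sets reach 99% or more in decile 10.

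Members were slightly wider than comparison peaks, and the difference was smaller at like strength. It was not kept for members with the midpoint in the gap, whose medians were 504 bp in PBS and 487 bp in lysine. For all members and the comparison peaks the widths were as follows. The median width of members was 529 bp in PBS (interval of the median 511 to 552) and 521 bp in lysine (502 to 533). That of comparison peaks was 507 bp (499 to 515) and 490 bp (483 to 498). Divergent members had medians of 546 and 527 bp, tandem members 492 and 475.5 bp. Members were the wider set in 3 of 10 deciles of −log10 q in PBS and in 5 of 10 in lysine, and weighted by decile the difference of 22 bp in PBS became 4 bp and that of 31 bp in lysine became 11 bp. Peaks of 1 kb or more made up 13.1% of the PBS members and 13.2% of comparison peaks, and 10.2% and 10.6% in lysine. Unshared members were narrower, at 414 bp in PBS and 370.5 bp in lysine, against 554 and 530 bp for shared ones. Narrow blocks, which the authors' gapped lists give inside a region, numbered 2 or more in 3.95% of PBS members and 3.84% of comparison peaks, and in 2.76% and 2.95% in lysine.

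The widest PBS members lay at LOC108167694-Gm20783 (3424 bp), Zfp36l1-Gm52006 (2964 bp), Sart3-Iscu (2406 bp), Jund-Iqcn (2395 bp) and Zc3h10-Rpl41 (2163 bp). Zfp36l1 encodes an mRNA decay factor and Jund a subunit of the transcription factor AP-1. In lysine they lay at the first pair (3028 bp) and at Zfp36l1-Gm52006 (2964 bp), the respiratory genes ND1-ND2 of the mitochondrial genome (2871 bp), Ints13-Fgfr1op2 (2303 bp) and Rnf5-Agpat1 (2175 bp). At the other PBS pairs the lysine peak was 1088 bp wide at Sart3-Iscu and 753 bp at Zc3h10-Rpl41, and there was none at Jund-Iqcn. ND1-ND2 had the lowest fold of both lists (1.495 in PBS, 1.46 in lysine), and mitochondrial DNA carries no histones. The mitochondrial genome held 2 members in each list.

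Where both libraries had a member at the same place, the peaks matched closely. For 543 pairs of members that overlap 1 to 1, the midpoints differed by a median of 52 bp, and the overlap was a median of 87.9% of the PBS peak and 92.8% of the lysine peak. The PBS peak was wider in 304 and the lysine peak in 237, with a median difference of 22 bp (quartiles -74.5 and 132.5). The rank by −log10 q was higher in PBS in 274 of the 543.

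Counted by gap, 545 had a peak in both libraries, 117 in PBS alone, 74 in lysine alone and 1272 in neither. With both lists held to the 9805 strongest peaks, 93 were called in PBS alone and 95 in lysine alone, so the larger number in PBS was not kept. Of the 736 gaps with a peak in either, 15.9% were called in PBS alone and 10.1% in lysine alone. The background at lone starts with a peak in the 250 bp outside was 19.3% and 14.4%, so a call in one library alone was not more frequent at close gaps. Around these 736 gaps, over the gap and 1 kb on each side, peaks of the PBS list spanned 426 kb and those of the lysine list 379 kb, a ratio of 0.890, against 0.908 at 3372 lone starts. Lysine was shorter at 420 gaps, longer at 315 and equal at 1, and by the median the lysine length less the PBS length came to -32 bp, as at lone starts (-32 bp). A difference of 500 bp or more was found at 68 gaps toward PBS (9.24%) and at 33 toward lysine (4.48%), against a background of 8.78% and 6.41% at lone starts. The share toward PBS was close to the background and that toward lysine was below it.

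**Figure D4:**
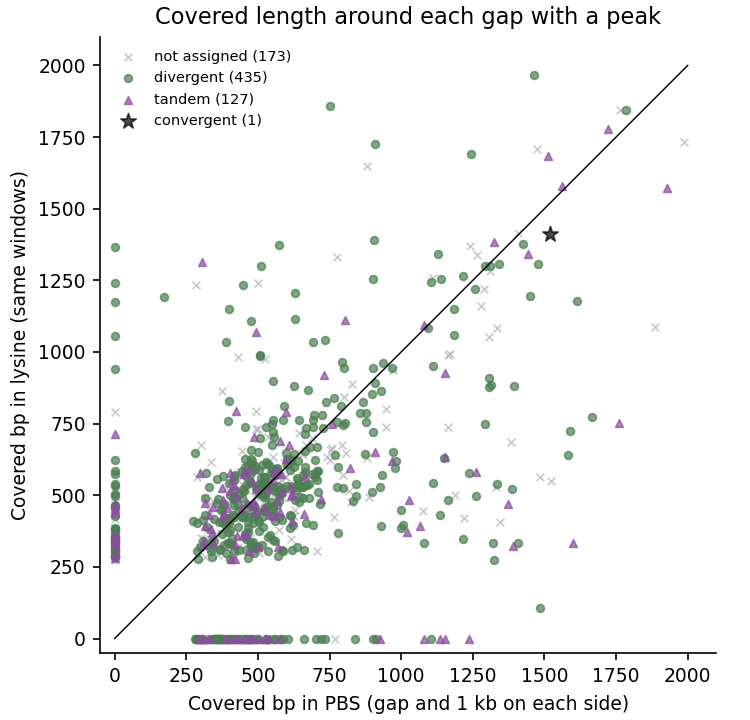
Covered bp over each gap and 1 kb on each side in PBS (horizontal axis) and lysine (vertical axis) for the 736 gaps with a peak in either library, by orientation, with a line at equal length. The 420 gaps below the line are shorter in lysine and the 315 above it longer, and points at 0 are gaps without covered length in that library.

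The longest shortfalls in lysine were at 5 pairs, each described from 1 library a condition. Stat5b-Stat5a, transcription factors of cytokine signalling that share a divergent gap of 346 bp (chr11:100859005-100859350), had peaks over 1484 bp of the window in PBS and 107 bp in lysine, and its PBS peak was weak (fold 3.72). Next were the histone pair H2ac13-H3c10 (1598 and 334 bp), Jund-Iqcn (1236 and 0 bp), Zbtb22-Tapbp (1154 and 0 bp) and Tap1-Psmb8 (1135 and 0 bp). Tapbp and Tap1 act in the pathway that loads peptides on MHC class I, and Psmb8 is a subunit of the immunoproteasome. The last 4 pairs are tandem. At Tap1-Psmb8 (chr17:34197226-34198194) the PBS peak covered 675 bp of the gap and 460 bp of Psmb8, and at Zbtb22-Tapbp it lay over the gap and 1000 bp of Tapbp. Of these 5 peaks only that of Jund-Iqcn (−log10 q 10.7) passed a stricter −log10 q of 5, and with equal numbers of peaks Stat5b-Stat5a turned to 107 bp more in lysine. By narrow blocks the differences, lysine less PBS, were smaller, at -253 bp for Stat5b-Stat5a, -121 for H2ac13-H3c10, -719 for Jund-Iqcn, -474 for Zbtb22-Tapbp and -440 for Tap1-Psmb8.

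The longest gains in lysine were at 5 divergent pairs. Nek8-Tlcd1, a ciliary kinase beside a membrane protein, had 0 and 1366 bp, and Lig4-Abhd13, with the ligase of DNA end joining, 0 and 1241 bp. Cetn4-Bbs12, with a centrin and a chaperonin-like protein of the cilium, had 0 and 1175 bp. Pcid2-Cul4a, with the scaffold of a ubiquitin ligase, had 751 and 1858 bp, and Gnl3-Pbrm1, a nucleolar GTPase beside a subunit of a chromatin remodeller, 0 and 1055 bp. At Lig4-Abhd13 the lysine peak was 1825 bp wide and covered the 1000 bp of Lig4 nearest the gap and 205 bp of Abhd13. Of the 5 gains it alone was left at a stricter −log10 q of 5, and by narrow blocks its gain was 294 bp. The other gains were then 367 bp at Nek8-Tlcd1, 0 at Cetn4-Bbs12, 682 at Pcid2-Cul4a and 487 at Gnl3-Pbrm1.

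The strongest peaks called over a gap in PBS alone were at Spag7-Camta2 (−log10 q 15.2), Jund-Iqcn (10.7), Snx5-Mgme1 (10.6), Dph3-Oxnad1 (9.49) and Pwp2-Trappc10 (9.02). Those in lysine alone were at Zfp513-Ppm1g (15.6), Pcyt2-Sirt7 (9.33), Lig4-Abhd13 (8.57), 4931428F04Rik-Exoc3l (7.93) and Erp44-Invs (7.90). In several of them the other library had a peak just beside the gap. Lysine covered 580 bp within 1 kb of the Spag7-Camta2 gap, where the difference went from -680 to -72 bp by narrow blocks, and 944 bp at Dph3-Oxnad1. PBS covered 907 bp beside the Zfp513-Ppm1g gap, which is 4 bp long, and 655 bp beside 4931428F04Rik-Exoc3l. At Snx5-Mgme1, where a sorting nexin and a mitochondrial exonuclease start 1 bp apart, and at Pwp2-Trappc10 lysine had no covered bp in the window, and at Pcyt2-Sirt7, Lig4-Abhd13 and Erp44-Invs PBS had none. Sirt7 is a nuclear deacylase, and Erp44 a protein of disulfide exchange.

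Genes of mitochondria, DNA repair, RNA processing and histones faced close gaps in larger shares than the 16.6% of all protein-coding genes. Groups were formed by gene symbol and are described by counts, with no test. Of 109 respiratory chain genes 50 (45.9%) faced a close gap and 29 of these had a gap peak in PBS, 23 in lysine and 21 in both. Of 78 mitochondrial ribosome genes 30 (38.5%) did, with 18, 16 and 14. Mrpl32-Psma2, a mitochondrial ribosomal protein beside a proteasome subunit, had the highest fold of this group and of the proteasome group (8.90 in PBS, 11.2 in lysine). Of 93 genes of DNA repair and replication 33 (35.5%) faced a gap, with 24, 22 and 21. Of 98 histone genes 45 (45.9%) did, with 30, 29 and 29. Over all 3643 facing genes, 1310 had a gap peak in PBS and 1227 in lysine, or 1087 in both. The mix of orientations differed between groups. Genes of divergent pairs numbered 26 (respiratory chain), 17 (mitochondrial ribosome), 20 (DNA repair and replication) and 19 (histones), and 1131 over all facing genes. Peak counts of the groups were not adjusted for orientation.

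Of 122 splicing and RNA-binding genes 44 (36.1%) faced a gap, with 23 in PBS, 25 in lysine and 23 in both. Of 19 aminoacyl-tRNA synthetase genes 7 did, 4 of them with a peak in both. Their highest fold over both lists was at Mrps12-Sars2 in lysine (10.3, with 7.43 in PBS). The proteasome had 16 of 51 genes and a peak at 8 in both libraries, the chaperones 26 of 85 and 13, the cytosolic ribosome group 27 of 101 and 12, and Rab, Vps and SNARE trafficking 34 of 157 and 10. The ribosome group by symbol includes the kinases Rps6kb1 and Rps6kb2, which are not ribosomal proteins, and that of the proteasome includes Psmc3ip, a recombination factor. Zwilch-Rpl4 had the highest fold of the ribosome group (7.45 and 8.30), Zfp654-Cggbp1 that of 397 zinc finger genes (9.06 and 8.75), Rab37-Slc9a3r1 that of trafficking (9.93 and 9.75) and H2ac11-H2bc11 that of histones (7.28 and 7.19). Zinc finger genes faced a gap in 10.8%, with 15 in both, and predicted genes in 7.09% of 1748, with 31 in both. The highest fold of predicted genes over both lists was at 1110059E24Rik-Abhd17b in lysine (9.87, with 8.16 in PBS). Of 1465 olfactory and vomeronasal receptor genes, taken as silent, 7 faced a close gap, and none had a gap peak in either library.

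Pairs long known as bidirectional were among the members, named here for that and after their values were seen. Atm-Npat, the DNA damage kinase beside an activator of histone genes, has a divergent gap of 60 bp with peaks of 625 bp (fold 9.61) in PBS and 597 bp (8.91) in lysine. Hnrnpa2b1-Cbx3, an RNA-binding protein beside a heterochromatin protein, has a gap of 105 bp with peaks of 1640 bp (5.26) and 1855 bp (4.21), over 1 kb in both libraries. Aimp2-Pms2, a scaffold of the tRNA synthetase complex beside a mismatch repair protein, has a gap of 61 bp with peaks of 666 bp (10.1) and 715 bp (8.92).

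Promoters of divergent genes with a gap peak were rich in CpG, and at like CpG content divergent genes still had a peak more often than lone genes. The promoter window runs from 250 bases before a start to 50 after it, and 17492 protein-coding genes matched one. The median observed to expected CpG was 0.868 in 875 divergent genes whose gap had a peak in either library, 0.727 in 256 without, 0.833 at lone starts with a peak in the 250 bp outside, 0.345 at lone starts without and 0.577 over all promoters. Among promoters at 0.8 or more, 85.2% of 657 divergent genes (82.3 to 87.9) and 51.9% of 3699 lone genes (50.3 to 53.6) had a peak. From 0.6 to 0.8 the shares were 75.2% and 35.8%, from 0.4 to 0.6 61.9% and 16.4%, and below 0.4 36.7% (26.1 to 48.3) and 2.99% (2.58 to 3.44). Both genes of a pair share the gap, so their values are not independent, and a pair has 2 starts that can bring a peak.

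**Figure D5:**
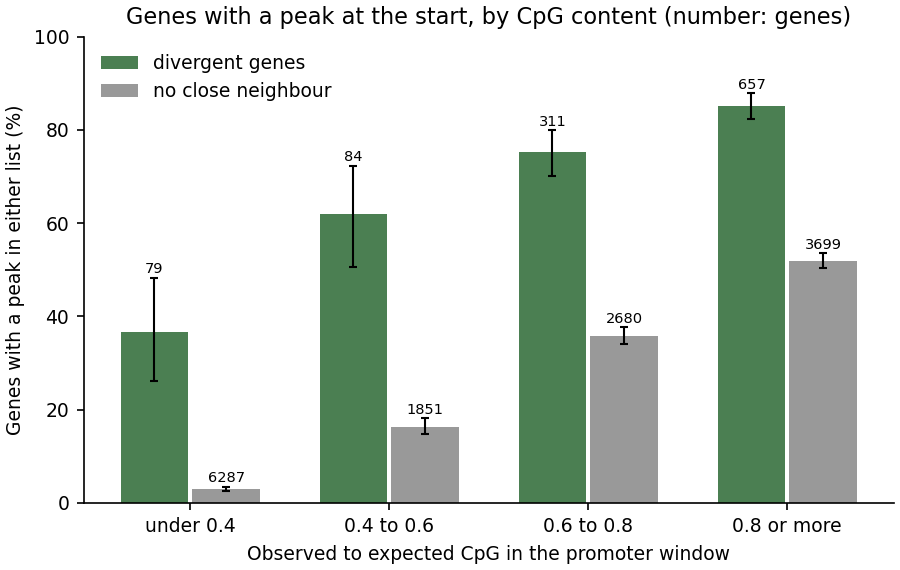
Percent of genes with a peak in either library (vertical axis) by observed to expected CpG of the promoter window (horizontal axis) for genes of divergent close pairs, over their gap, and for genes with no close neighbour, over the 250 bp outside the start, with exact 95% intervals and the number of genes above each bar. The divergent genes are higher in each bin, from 36.7% against 2.99% to 85.2% against 51.9%.

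Motif letters in the same windows also differed between the sets, as a description. Each motif was searched on both strands, and motifs may overlap each other. CCGGAAG, the ETS site, was in 29.3% of the windows of divergent genes with a gap peak, 18.8% of those without, 21.6% at lone starts with a peak and 11.9% of all promoters. TGCGCA was in 21.5%, 9.77%, 19.7% and 10.1%, and AAGATGG in 12.3%, 7.03%, 7.56% and 6.35%. GGGCGG was in 68.5%, 58.2%, 71.0% and 46.3%, CCAAT in 46.9%, 43.8%, 46.3% and 39.2%, and TATAAA in 5.26%, 6.64%, 6.17% and 13.3%. At lone starts without a peak the shares were 6.37% (CCGGAAG), 5.80% (TGCGCA), 5.43% (AAGATGG), 34.7% (GGGCGG), 36.2% (CCAAT) and 17.1% (TATAAA). At lone starts as at divergent genes, all motifs but TATAAA were thus more frequent with a peak than without. Windows of the facing genes of a short gap overlap and can hold the same match. Within the gap itself, sequence was read only where the promoter windows of both genes cover the gap, which needs a start on each side. Of these gaps, those of 50 to 500 bp read in full were searched. They stand for divergent pairs and not for all close gaps. The NRF1 core was in 12.6% of 293 gaps with a peak and 4.84% of 62 without, and CCAAT in 45.7% and 32.3%. Such matches occur in the printed Mrpl32-Psma2 and Mmab-Mvk gaps, which were picked for gene group or fold. Gaps with a peak were longer (median 135 against 103 bp), and the shares were not adjusted for the length searched.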

How the data were processed

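H3K79me2 was profiled by ChIP-seq with paired-end reads in formaldehyde-fixed BMDCs, per the labels' protocols, and groups were taken from the sample titles. Per the submitters' processing notes, the build was GRCm38 and the tools included MACS2 2.1.2, ChIPseeker, Bowtie2 2.3.4.1, Picard, FastQC, Trimmomatic 0.38 and cutadapt 1.18, with no roles or settings named. Peak lists were deposited per sample, with no header, and were read by MACS2's column layout. The deposited fold is a linear ratio to the local background, averaged over a peak. For significance the authors deposited −log10 q, used here, and −log10 p, not used, and the deposited score follows from −log10 q and was not used. For calling thresholds and the role of the inputs nothing was found (not given in the sources used here), and the inputs were not analysed here. A peak threshold depends on depth, which is unknown, so a missing peak is not an absent mark.

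Gene positions came from the RefSeq table of GRCm38.p6, and strand from its promoter table, which holds 79.87% of the protein-coding genes. Gaps free of any protein-coding gene and 1 to 1000 bp long were taken. Comparison peaks lie within 1000 bp of an end of a gene facing no such gap, and 3279 of those 18257 genes overlap another gene. Members and lists were chosen with earlier results of these data known. Named pairs were, for each list, the 5 with the highest fold and the 5 widest, the 5 largest differences and the 5 strongest calls in one list alone in each direction, and the highest fold of each gene group. Symbol patterns of the groups were read as numbered family members. Overlaps were computed with Python 3.11.15, numpy 2.4.6, pandas 2.3.3, scipy 1.17.1 and statsmodels 0.14.6 and drawn with matplotlib 3.10.9. They were checked against bedtools 2.31.1 with 0 differences, and tested on simulated data of 200 gene pairs, where 4 of 4 planted counts were recovered. Alternatives were other gap limits, peak thresholds, definitions of sharing and membership, gene tables and comparison sets.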

Additional observations from a re-analysis of the deposited data

How the results depend on the processing

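Over 16 alternative settings, 136 of 168 values of 17 results stayed within the interval of the reported value or, for counts of gaps, within 1.5 times it, and 32 did not. No difference from the comparison peaks that was computed changed sign. The width difference was not computed for peaks with the midpoint in the gap, whose medians were below the 507 and 490 bp of comparison peaks. Gaps called in one library alone went from 117 (PBS) and 74 (lysine) to 93 and 95 with equal numbers of peaks. With only peaks of −log10 q of at least 5, 260 gaps had a peak in both libraries, 41.8% (PBS) and 37.5% (lysine) of divergent gaps had one, 14% and 9.93% of tandem and 0% and 0% of convergent. Sharing was then 70.2% and 77.7%, its difference from the comparison 4.51 and 1.21 points, and the median width 567 and 561 bp. At a fold of at least 4, divergent gaps came to 62.5% and 58.4%, tandem to 20.3% and 17.2% and PBS sharing to 80.9%. With the 9805 strongest peaks of each list, PBS divergent gaps came to 65.8%, lysine sharing to 86.1% and its difference to 9.55 points. Narrow blocks gave median widths of 502.5 and 499 bp and 0% and 0% of convergent gaps, and peaks with the midpoint in the gap 504 and 487 bp. Overlap of 50% of both peaks gave sharing of 73.8% and 78.4%. Weighting by strength gave differences of 3.62 and 3.31 points and a width difference of 11 bp in lysine. Comparison sets at starts alone or without overlapping genes, and all alternatives for the shares by orientation and for the named pairs, were chosen after seeing the data.

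Of 18 pairs named for a difference or for a call in one library, 3 changed direction, with the cause not tested. The difference, lysine minus PBS, went from 142 to -802 bp at Dph3-Oxnad1 with −log10 q of at least 5, from -1377 to 107 bp at Stat5b-Stat5a with equal numbers and with a fold of at least 4, and from -255 to 39 bp at Zfp513-Ppm1g by narrow blocks. At −log10 q of at least 5, 8 of the 18 had a difference of 0. Each condition had 1 library and the depth is unknown, so neither the conditions nor a missing peak could be tested. No paired analysis was possible because each condition has 1 library and no test was made.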
